A study of Homo sapiens with 12 samples.

Results

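The 7 genes FOXN1, ASCL4, CYP26A1, TMPRSS11F, NEK10, LRRC2 and CACNA1S were nearly silent in parental BT474 cells kept in DMSO and were transcribed after neratinib. In cells labelled BRD8 KO the same genes had from 4 (LRRC2) to 79 (CYP26A1) counts over the 3 DMSO libraries. They are 7 of the 27814 named genes of the count table, and they were chosen by their measured counts, low in DMSO and high in neratinib, in the libraries described here. The contrast of neratinib with DMSO, the low DMSO levels and the high neratinib levels are therefore given as a description, without a test. The contrast of the genotypes in neratinib, which the choice did not name, was tested. For CACNA1S it is not independent of how the gene came to be tested, because only its KO-labelled neratinib libraries were high enough. Bulk RNA sequencing was done in BT474, an established breast cancer line with amplified HER2 and hormone receptors. There were 4 groups of 3 libraries. Parental cells and cells labelled BRD8 KO were each sampled in DMSO, which is the solvent of the drug, and in 200 nM neratinib given for 4 h. The time in DMSO is not in the labels. The labels give neither the position of the BRD8 edit nor whether the edited cells were a clone or a pool, so the cells are called KO-labelled. Whether the replicates were separate cultures is not stated either. The p-values therefore rest on the spread between these samples alone, and that spread may be technical.

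Neratinib binds the kinases of the ErbB receptors, HER2 among them, and blocks them irreversibly. BRD8 carries a bromodomain and is part of the EP400-TIP60 complex, which modifies chromatin. HER2 signals through the ERK and AKT pathways, and AKT keeps FOXO transcription factors out of the nucleus. The 7 genes belong to different programmes of differentiated tissues. FOXN1 is a forkhead transcription factor of thymic epithelium and skin, and ASCL4 is a basic helix-loop-helix factor of the achaete-scute family. CYP26A1 is a cytochrome P450 that clears retinoic acid and is itself a textbook target of the retinoic acid receptors. TMPRSS11F is a serine protease anchored in the cell membrane, NEK10 a NIMA-related kinase linked to motile cilia, LRRC2 a leucine-rich repeat protein known from heart and skeletal muscle, and CACNA1S the pore subunit of the skeletal muscle L-type calcium channel.

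The DNA around the start sites is shown first, because these genes share a pattern of expression and their promoters are the natural place to compare them. The 7 genes had 9 windows of 250 bases before to 50 after a RefSeq start site (GRCh38.p14), with a second window each for CYP26A1 and NEK10. Both strands were searched for 4 motifs that do not contain one another: GTAAACA for FOXO factors, TGACTCA for AP-1, TATAAA for the TATA box, and the direct repeat bound by retinoic acid receptors, searched as AGTTCA, 5 bases of any kind and AGTTCA again. This exact spelling of the repeat was present in 4 of 35116 windows (0.0114%), those of CYP26A1, LOC102723752, PDC and PHF8. Other spellings were not searched, so the share is that of this spelling and not of the repeat in general. The spelling searched is that of the CYP26A1 site itself. The match in CYP26A1 and its rarity are therefore a description and no support for a link with retinoic acid. In CYP26A1 the repeat lies on the minus strand, at positions -90 to -74 from the start site at 93073893 on chromosome 10. Of the 250 bases before that site, 195 lie in annotated exons. The line gives the plus strand at chr10:93073797-93073825 with the repeat in capitals, followed by the TATA box at chr10:93073850-93073879.
CYP26A1 direct repeat: taaagaTGAACTTTGGGTGAACTaattgt
CYP26A1 TATA box: acctgggccgccTATAAAgcggcagcgccg

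LRRC2 was the member with the FOXO and the AP-1 letters, which 3.42% and 4.95% of all windows held. Both stretches are on the minus strand of chromosome 3, the AP-1 letters before the RefSeq start site at chr3:46566381-46566409 and the FOXO letters after it at chr3:46566253-46566277. Of the 250 bases before the LRRC2 start site, 248 lie in annotated exons, the AP-1 letters among them. ASCL4 had TATAAA on its minus strand, at positions -164 to -159 from the start site, shown on the plus strand at chr12:107774528-107774557. All 250 bases before that RefSeq start site, these letters included, lie in the annotated exon of ASCL4. TATAAA was found in 11.5% of windows.
LRRC2 AP-1 letters: tcaggctgggcTGAGTCAcatagaataga
LRRC2 FOXO letters: gctcagcgggtGTAAACAgcctctg
ASCL4 TATA letters: gacttgacacatTTTATAaccgcaagagag

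FOXN1 had the highest level of the 7 per length in parental neratinib libraries, and TMPRSS11F lies among neighbours with hardly a count, so their upstream DNA is printed as far as it lies outside annotated exons. The FOXN1 stretch is chr17:28506098-28506242 on the plus strand, and the TMPRSS11F stretch is chr4:68129881-68130119 on the minus strand. None of the 4 motifs was found in their windows, nor in those of NEK10 and CACNA1S, which says only that these letters are not there. The GC content of the 250 bases before the start site was 63.2% for FOXN1 and 43.2% for TMPRSS11F, against a median of 58.0% over all windows, with quartiles of 46.4% and 68.0%.
FOXN1 upstream: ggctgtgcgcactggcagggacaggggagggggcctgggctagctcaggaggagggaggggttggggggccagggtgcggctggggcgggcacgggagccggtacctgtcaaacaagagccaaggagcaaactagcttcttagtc
TMPRSS11F upstream: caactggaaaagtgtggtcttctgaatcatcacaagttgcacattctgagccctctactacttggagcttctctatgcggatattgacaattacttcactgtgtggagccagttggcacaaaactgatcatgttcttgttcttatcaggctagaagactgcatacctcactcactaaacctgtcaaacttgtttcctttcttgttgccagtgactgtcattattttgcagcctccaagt

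The libraries held between 32471198 and 44726160 counts in named genes. At this depth 3 counts over the 3 libraries of a group, taken as the floor, correspond to between 0.0255 and 0.0268 CPM (read counts divided by library size, with TMM factors, the trimmed mean of M values). BRD8 was measured as the check of the genotype label and in DMSO its means were 64.1 CPM (parental) and 67.4 CPM (KO-labelled), so its mRNA was not lower there, which an edited gene allows. As checks of the drug in parental cells, the insulin receptor adaptor gene IRS2 rose by 4.91 on the log2 scale and the ERK phosphatase gene DUSP6 fell by 4.12. In KO-labelled cells IRS2 rose by 5.0 and DUSP6 fell by 1.17. The 9 BT474 identity genes were all expressed, with a sum of 14600 to 15700 CPM over the 12 libraries. In RNA from whole cultures, more cells with an mRNA and more of it per cell cannot be told apart.

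The transcription factor FOXN1, at 28506243 to 28538896 of chromosome 17 (plus strand, by GENCODE 29 on GRCh38 as for all 7), had the most counts of the 7 in parental neratinib libraries. Its counts were 4, 2 and 3 in the parental DMSO libraries and 433, 293 and 377 in parental neratinib. They were 6, 10 and 6 in KO-labelled DMSO and 266, 309 and 271 in KO-labelled neratinib. Every neratinib library lay far above every DMSO library. The summed counts of 1103 against 9 gave a ratio of 120 in parental cells (95% interval 62.9 to 263, counting error only). In KO-labelled cells the ratio was 39.9 (26.2 to 64.0), from 846 against 22. In neratinib FOXN1 reached 9.36 ± 0.476 CPM (parental) and 7.58 ± 0.284 CPM (KO-labelled; SD, n = 3 each).

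ASCL4, a gene of a single exon at 107774385 to 107776644 of chromosome 12 (plus strand), had 0, 6 and 0 counts in parental DMSO, so 1 library held all of its DMSO counts. Parental neratinib libraries had 54, 40 and 59 counts. The KO-labelled libraries had 3, 4 and 5 counts in DMSO and 39, 38 and 42 in neratinib. Parental and KO-labelled DMSO libraries overlapped, and neither overlapped with neratinib. The parental ratio was 24.9 (11.2 to 69.0), and it was 16.3 without parental DMSO replicate 1. Without replicate 2 it was 33.7, with the floor in place of the DMSO counts. The KO-labelled ratio was 10.3 (5.67 to 20.5).

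Among the relatives of the 2 factors, FOXN3 rose in both genotypes, by 1.59 (SE 0.029) in parental and 1.22 in KO-labelled cells, from 55.3 to 167 CPM in the former (edgeR quasi-likelihood, Benjamini-Hochberg adjusted p = 5.97e-39 and 6.39e-35). FOXN2, at 3.4 and 3.5 CPM in parental cells, did not pass (adjusted p = 0.703, edgeR). FOXN4 had too few counts to be tested and averaged 0.0266 CPM in DMSO and 0.174 CPM in neratinib. In the achaete-scute family, ASCL2 went the other way from ASCL4 and fell by 2.55 in parental cells, from 69.5 to 11.8 CPM, and by 3.02 in KO-labelled cells (edgeR, adjusted p = 3.73e-42 and 1.66e-42). ASCL3 and ASCL5 were at most 0.0719 CPM in any group.

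CYP26A1, at 93073475 to 93077890 of chromosome 10 (plus strand), was the member with the most counts in KO-labelled cells. Its counts were 3, 5 and 3 in parental DMSO and 25, 31 and 23 in KO-labelled DMSO. They reached 152, 71 and 116 in parental neratinib and 491, 572 and 465 in KO-labelled neratinib. The 4 groups did not overlap, and each step went up in that order. In parental cells the ratio was 30.1 (16.6 to 61.0), and in KO-labelled cells, which started higher, it was 20.1 (16.0 to 25.5). Its longest transcript holds 2196 windows of 50 bases, and 703 of them (32.0%) also occur in the overlapping annotation AL358613.3, which is not a line of the table.

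TMPRSS11F, at 68053198 to 68129880 of chromosome 4 (minus strand), had 1, 2 and 1 counts in parental DMSO and 54, 36 and 45 in parental neratinib. The KO-labelled libraries had 9, 3 and 4 counts in DMSO and 32, 58 and 24 in neratinib. The KO-labelled neratinib libraries were the most spread of the groups, from 0.671 to 1.37 CPM, and enclosed the parental ones. The ratio was 33.0 (12.6 to 123) in parental cells. It was 7.39 (4.36 to 13.4) in KO-labelled cells, and 11.1 without KO-labelled DMSO replicate 1, which held 9 of the 16 counts.

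NEK10, at 27110085 to 27369460 of chromosome 3 (minus strand), had 0, 2 and 3 counts in parental DMSO and 67, 39 and 46 in parental neratinib. In KO-labelled cells it had 8, 10 and 4 counts in DMSO and 72, 90 and 63 in neratinib. The groups did not overlap on the CPM scale. The parental ratio was 29.7 (12.5 to 92.9), with 19.4 without parental DMSO replicate 1 and 49.8 without replicate 3. The KO-labelled ratio was 10.6 (6.83 to 17.3).

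LRRC2, at 46515423 to 46580099 of chromosome 3 (minus strand), had the fewest counts of the 7 in KO-labelled DMSO, with 1, 2 and 1. Parental DMSO libraries had 3, 1 and 1. With neratinib, parental libraries had 45, 30 and 53 counts and KO-labelled libraries 59, 48 and 41. The genotypes overlapped in both treatments. The ratios were 25 (10.5 to 78.4) in parental cells, 40.9 without parental DMSO replicate 1, and 38.4 (14.7 to 143) in KO-labelled cells. LRRC2 shares 54 of 5051 windows of 50 bases (1.07%) with other genes. An exon of TDGF1 overlaps an LRRC2 exon, but TDGF1 had at most 2 counts in any group. The overlapping antisense gene LRRC2-AS1 had 3 counts in parental DMSO and 18 in parental neratinib, and strand was not marked in these libraries.

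CACNA1S, at 201039512 to 201112566 of chromosome 1 (minus strand), had no count in any parental DMSO library. In parental neratinib it had 20, 15 and 9 counts, 14.3-fold the floor of 3 counts over the group, a value given without an interval. KO-labelled libraries had 1, 4 and 3 counts in DMSO and 66, 97 and 87 in neratinib. All 4 groups were separate on the CPM scale, and the KO-labelled neratinib libraries stood above the parental ones by a wide gap, 1.95 CPM at the lowest against 0.453 CPM at the highest. The KO-labelled ratio of neratinib to DMSO was 32.4 (16.2 to 75.9). Leaving out parental DMSO replicate 1 lowered the parental value against the floor to 9.38-fold, because the floor then applies to fewer libraries.

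**Figure D1:**
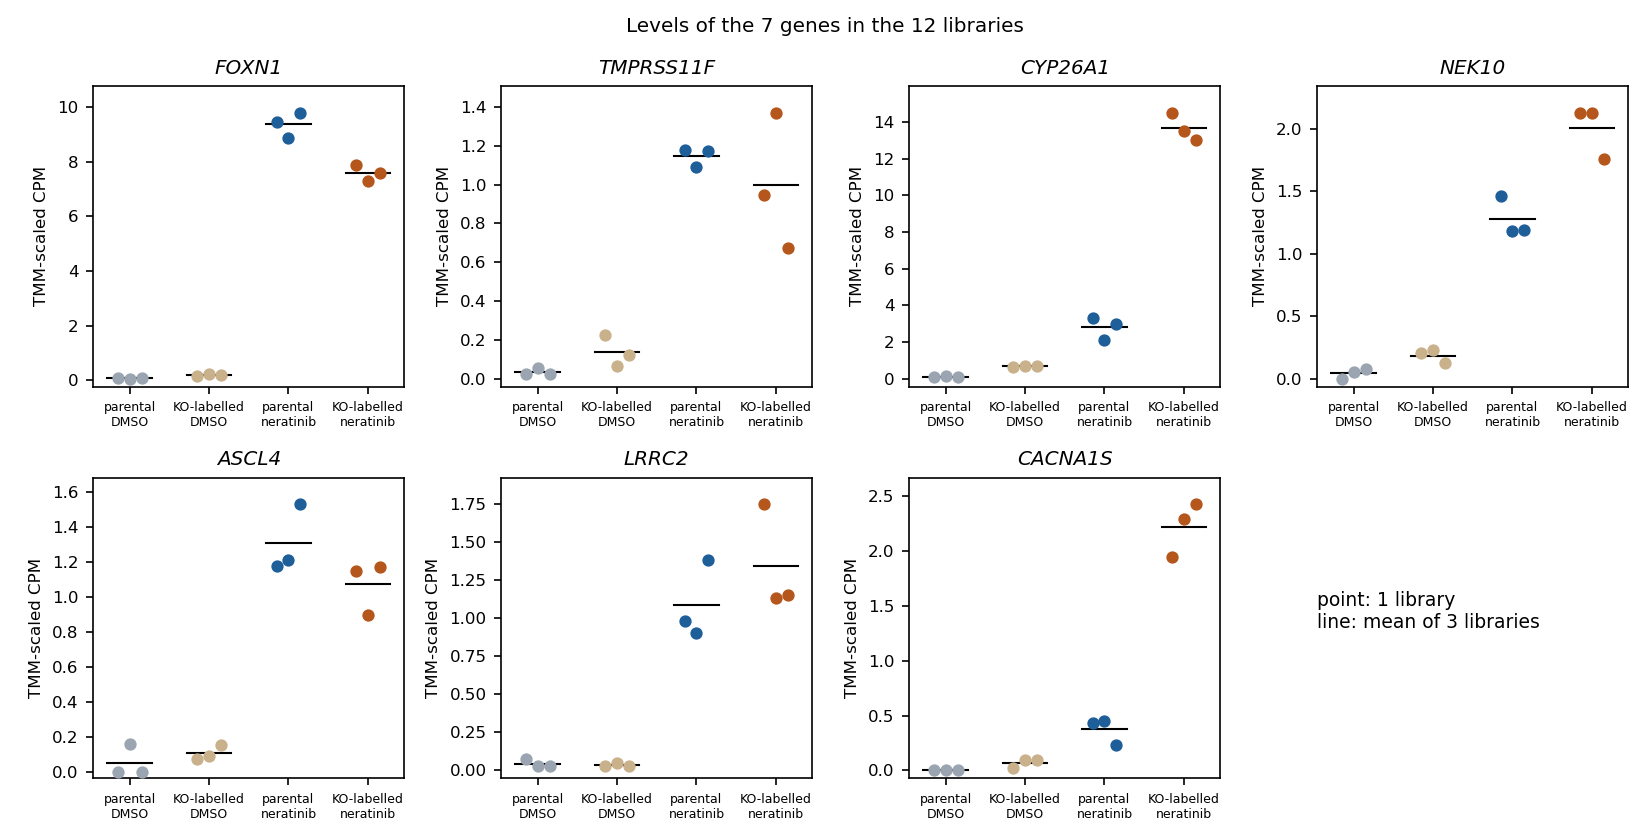
Level of each of the 7 genes in the 12 libraries, as TMM-scaled CPM (y axis) by group (x axis); each point is 1 library and each line the mean of 3. The neratinib libraries lie above the DMSO libraries in every panel, and those of KO-labelled cells stand highest for CYP26A1 (13.7 CPM on average) and CACNA1S (2.23 CPM).

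In all 7 genes the neratinib libraries lay above the DMSO libraries without overlap, in both genotypes. Over all genes tested this was so for 42.1% in parental and 39.2% in KO-labelled cells, and the members were chosen for it. In DMSO the KO-labelled libraries lay above the parental ones without overlap for 5 of the 7 genes, all but ASCL4 and LRRC2, against 36.5% of genes tested. The ratios of KO-labelled to parental DMSO counts were 7.11 for CYP26A1 (3.77 to 14.8), 4.36 for NEK10 (1.61 to 14.7), 3.96 for TMPRSS11F (1.28 to 16.3) and 2.42 for FOXN1 (1.07 to 5.97). For CACNA1S the 8 counts against 0 gave 2.64-fold against the floor, a value without an interval. ASCL4 had a ratio of 1.98 (0.688 to 6.43) and LRRC2 of 0.792 (0.157 to 3.68), and both intervals include equality. These intervals cover counting error only, and the low DMSO levels were part of the choice.

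Levels of different genes were compared per kilobase of annotated exon. In parental neratinib libraries FOXN1 stood first at 2.57 ± 0.131 CPM per kilobase, followed by CYP26A1 at 0.95 ± 0.205 (SD, n = 3 each). ASCL4 at 0.578 ± 0.0869 and TMPRSS11F at 0.548 ± 0.0239 CPM per kilobase did not differ beyond their spread. LRRC2, NEK10 and CACNA1S followed at 0.194 ± 0.0449, 0.133 ± 0.0166 and 0.0607 ± 0.0198 CPM per kilobase. The place of NEK10 depends on the length used, since it has many short isoforms, and by its longest transcript it stood at 0.301 ± 0.0375, above LRRC2 at 0.213 ± 0.0495. In KO-labelled neratinib libraries CYP26A1 was first at 4.6 ± 0.262 CPM per kilobase and FOXN1 second at 2.08 ± 0.0781. CACNA1S there reached 0.361 ± 0.0399 CPM per kilobase, above LRRC2 at 0.239 ± 0.0622 and NEK10 at 0.209 ± 0.0222. By longest transcript that order turned, with NEK10 at 0.472 ± 0.05, above CACNA1S at 0.361 ± 0.0399 and LRRC2 at 0.263 ± 0.0686 CPM per kilobase, so NEK10 has no fixed place among these 3.

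The comparison of the genotypes in neratinib addresses whether cells labelled BRD8 KO differ in these genes once they are transcribed. It separated the members into 3 kinds. CACNA1S, CYP26A1 and NEK10 were higher in KO-labelled cells, FOXN1 was lower, and ASCL4, TMPRSS11F and LRRC2 did not pass the test. Of the 16208 genes tested, 71.6% were called in this contrast, 34.7% higher and 36.9% lower in KO-labelled cells, so that the 4 calls among the 7 members, 3 higher and 1 lower, are no more than the background holds. At least 2-fold differences were called for 11.2% of genes, and 2 of the 7 members, CACNA1S and CYP26A1, were among them. Libraries of the genotypes did not overlap for 5 of the 7 members, against 72.6% of genes tested.

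CACNA1S differed most of the 7, with a log2 fold change of 2.56 (SE 0.225, 95% interval 2.11 to 3.02, edgeR quasi-likelihood, Benjamini-Hochberg adjusted p = 2.14e-13), or 5.92-fold, from 0.374 ± 0.122 to 2.23 ± 0.246 CPM (SD, n = 3). It passed the count filter only because of its KO-labelled neratinib libraries, since parental neratinib held 20, 15 and 9 counts. Its difference is therefore not independent of how it came to be tested, and its p-value is no support. CYP26A1 was 4.74-fold higher, with a log2 fold change of 2.24 (SE 0.091, 2.06 to 2.43, edgeR adjusted p = 2.96e-25), from 2.82 ± 0.608 to 13.7 ± 0.78 CPM. NEK10 was 1.55-fold higher (log2 fold change 0.64, SE 0.171, 0.29 to 0.98, edgeR adjusted p = 0.00108). All 3 KO-labelled libraries were above all 3 parental ones for each of these genes. FOXN1 was lower, with a log2 fold change of -0.31 (SE 0.072, -0.46 to -0.17, edgeR adjusted p = 0.000174), and all 3 KO-labelled libraries were below the parental ones.

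For LRRC2 the log2 fold change was 0.28 (interval -0.13 to 0.69, edgeR adjusted p = 0.213), for TMPRSS11F -0.18 (-0.62 to 0.26, adjusted p = 0.474) and for ASCL4 -0.29 (-0.74 to 0.15, adjusted p = 0.237). In fold terms their intervals ran from 0.915 to 1.62, from 0.651 to 1.2 and from 0.601 to 1.11, so that moderate differences are not resolved for these low genes. The ASCL4 libraries of the genotypes did not overlap, but only just, with 1.17 CPM the highest in KO-labelled and 1.18 CPM the lowest in parental cells. The TMPRSS11F difference rests on 1 library: without KO-labelled neratinib replicate 3 the log2 fold change was 0.04 (edgeR adjusted p = 0.895). BRD8 itself was lower in KO-labelled neratinib libraries, at 156 against 236 CPM (log2 fold change -0.59, edgeR adjusted p = 3.16e-27). The drug markers also differed between the genotypes, with IRS2 at -0.3 and DUSP6 at 2.57 on the log2 scale (edgeR adjusted p = 3.04e-10 and 6.43e-28), and their part in the members' differences was not tested.

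**Figure D2:**
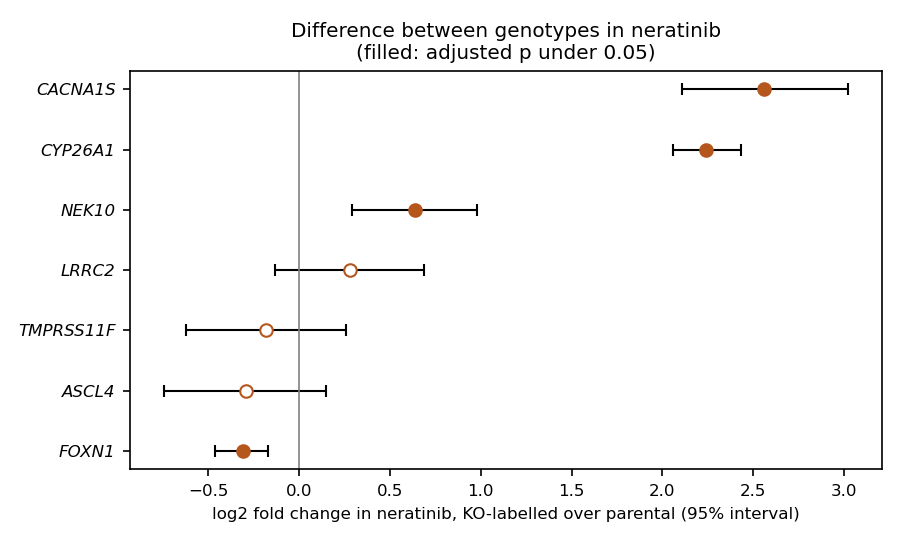
Difference between the genotypes in neratinib for the 7 genes, as log2 fold change of KO-labelled over parental cells (x axis) with its 95% interval; filled points have an adjusted p under 0.05. CACNA1S (2.56) and CYP26A1 (2.24) stand apart from the other genes, which lie between -0.31 and 0.64.

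CYP26A1 belongs to the retinoic acid pathway, in which aldehyde dehydrogenases make retinoic acid, RAR and RXR receptors act on it and CYP26 enzymes remove it. Of 23 pathway genes other than CYP26A1, 19 had enough counts, of which 10 rose and 6 fell with neratinib in parental cells (median log2 fold change 0.25). In KO-labelled cells 10 rose and 7 fell (median 0.13). Over all 16208 genes tested, 6778 rose (41.8%) and 6299 fell (38.9%) in parental cells, 80.7% in all, with a median of 0.039. In KO-labelled cells 6298 rose (38.9%) and 6221 fell (38.4%), 77.2% in all, with a median of 0.017. The receptor gene RXRG rose most of these genes, by 3.82 (SE 0.419) in parental and 3.61 in KO-labelled cells, from 0.0517 ± 0.0243 to 0.782 ± 0.115 CPM and from 0.178 ± 0.0756 to 2.14 ± 0.124 CPM (SD, n = 3, edgeR adjusted p = 3.81e-11 and 8.8e-17). ALDH1A2, which makes retinoic acid, rose by 2.14 in parental and by 0.99 in KO-labelled cells (edgeR adjusted p = 1.05e-05 and 0.00023). STRA6, the retinol uptake receptor gene, fell by 2.23 and 1.07, and RARRES1, named for its induction by retinoids, fell by 1.56 and 1.12 (edgeR adjusted p at most 0.000101). Pathway members therefore went both ways.

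RARB and DHRS3, other genes known as retinoic acid targets, and the CYP26A1 relatives CYP26B1 and CYP26C1 were chosen after their values were seen. RARB rose by 1.85 in parental and 1.7 in KO-labelled cells (edgeR adjusted p = 4.91e-17 and 5.29e-24). Its levels were 1.07, 3.98, 3.89 and 12.9 CPM in parental DMSO, KO-labelled DMSO, parental neratinib and KO-labelled neratinib. The lowest and the highest group were those of CYP26A1. The middle pair differed from CYP26A1, which rose from 0.681 CPM in KO-labelled DMSO to 2.82 CPM in parental neratinib, where RARB was no higher. Between the genotypes in neratinib, 34.7% of all genes tested were higher in KO-labelled cells and 36.9% were lower. Of the 19 pathway genes tested 12 were higher, 4 were lower and 3 did not pass (median 0.35, against -0.019 over all genes). RARB, RXRG and ALDH1A2 were among the higher ones, by 1.74, 1.44 and 1.22 (edgeR adjusted p = 5.9e-24, 3.09e-09 and 2.35e-05). RARRES1 was lower, at -0.24 (edgeR adjusted p = 0.0367), and DHRS3, at -0.19, did not pass (adjusted p = 0.293, edgeR). STRA6 was higher there as well, by 3.08 (edgeR adjusted p = 4.04e-08), although it fell with the drug. With neratinib DHRS3 rose by 1.53 in parental cells (edgeR adjusted p = 3.09e-09). Its log2 fold change of 0.38 in KO-labelled cells (edgeR adjusted p = 0.0488) lost the call under 10 of 18 alternatives, with adjusted p from 0.0244 to 0.233. These included leaving out replicate 2 or 3 of KO-labelled DMSO (0.0778 and 0.233), replicate 1 or 2 of KO-labelled neratinib (0.103 and 0.106), or replicate 2 of parental DMSO or neratinib (0.0523 and 0.053). CYP26B1 and CYP26C1 stayed at or below 0.0654 CPM in every group, so CYP26A1 was the CYP26 gene with appreciable counts.

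**Figure D3:**
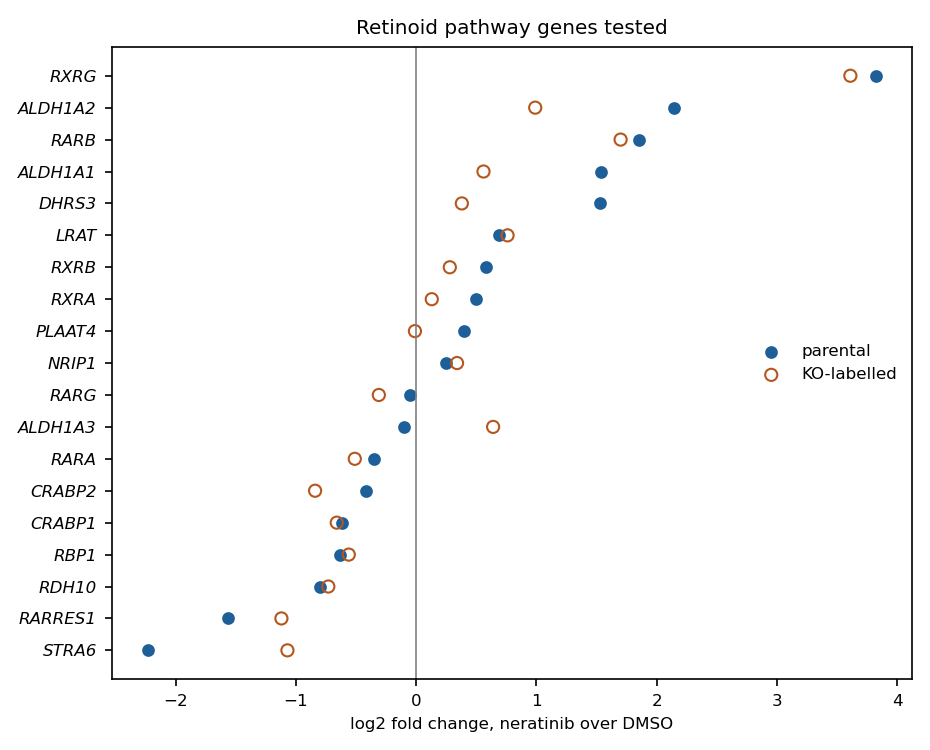
Change with neratinib of the 19 retinoid pathway genes tested, as log2 fold change over DMSO (x axis), in parental (filled) and KO-labelled cells (open); CYP26A1 itself is not plotted. RXRG (3.82 and 3.61) and RARB (1.85 and 1.7) lie to the right in both genotypes, and STRA6 (-2.23 and -1.07) to the left.

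CACNA1S is joined in muscle by beta, alpha2delta and gamma subunits, by the adaptor STAC3 and by the release channel RYR1. Of 23 calcium channel and partner genes other than CACNA1S, 19 were tested, of which 7 rose and 3 fell in parental cells (median 0.28), with the same counts in KO-labelled cells (median 0.12). The shares over all genes tested were 41.8% up and 38.9% down in parental cells, and 38.9% and 38.4% in KO-labelled cells. With library totals alone 9 rose in each genotype, and 2 fell in parental cells. CACNA1C, the L-type pore gene of heart and smooth muscle, rose by 3.08 in parental cells (SE 0.156), from 0.557 ± 0.0314 to 4.72 ± 0.12 CPM, and by 1.14 in KO-labelled cells, from 2.04 to 4.52 CPM (SD, n = 3, edgeR adjusted p = 4.61e-22 and 8.1e-12). The beta subunit gene CACNB2 rose by 1.67 and 1.8, while CACNB3 fell by 1.46 and 0.99 and CACNG4 by 0.83 and 0.39 (edgeR adjusted p at most 4.39e-06). In the comparison of the genotypes in neratinib, CACNA1C did not pass (log2 fold change -0.06, edgeR adjusted p = 0.588), and its difference from CACNA1S was not tested. STAC3, CACNB1 and RYR1 were chosen after their values were seen. STAC3 rose by 1.04 and 0.81 (edgeR adjusted p = 1.38e-07 and 1.27e-06), whereas CACNB1 at 0.1 and RYR1 at 0.46 in parental cells did not pass (edgeR adjusted p = 0.156 and 0.121).

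CACNA1S and LRRC2 are known from striated muscle, so muscle genes were read in the same libraries. Of 19 muscle markers, 11 had at most 12 counts over all 12 libraries, among them the master regulators MYOD1, MYF5 and MYF6, and MYOG and TNNT3 were at 0. Of the 6 tested, 1 rose and 3 fell in parental cells (median -0.14), where ACTA1 fell by 1.44, ACTC1 fell by 1.31 (edgeR adjusted p = 3.55e-34 and 1.86e-15) and myoglobin, MB, rose by 0.38 (adjusted p = 8.01e-18, edgeR). In KO-labelled cells 3 of the 6 fell and the other 3 did not pass, of which 1 rose with library totals alone. Among all genes tested 41.8% rose and 38.9% fell in parental cells, and 38.9% and 38.4% in KO-labelled cells. The summed level of the list was 195 to 201 CPM in parental DMSO and 158 to 160 CPM in parental neratinib. It was 208 to 222 and 164 to 170 CPM in KO-labelled cells.

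NEK10 stands beside 10 other NIMA-related kinases, all of which were tested. In parental cells 6 rose and 2 fell (median 0.58), where NEK7 rose by 1.11, NEK1 rose by 0.9 and NEK6 fell by 1.35 (edgeR adjusted p at most 1.57e-20). In KO-labelled cells 4 rose and 3 fell (median 0.11), with NEK7 at 1.1 and NEK6 at -0.75. Here and for the cilia genes below, the shares over all genes were 41.8% up and 38.9% down in parental cells. They were 38.9% and 38.4% in KO-labelled cells. In parental DMSO, where NEK10 had 5 counts in all, NEK1 stood at 12.9 CPM and NEK7 at 45.9 CPM. NEK4 fell by 0.28 and 0.31 in the 2 genotypes (edgeR adjusted p = 1.49e-06 and 1.9e-06). Of 11 genes of motile cilia, the structures NEK10 is linked to, 7 were tested. In parental cells 3 rose and 1 fell (median 0.59), and in KO-labelled cells 4 rose and 1 fell (median 0.63). The dynein gene DNAH5 rose by 2.44 and 2.04, in the latter case from 9.91 to 40.8 CPM (edgeR adjusted p = 1.55e-30 and 7.59e-33), and the dynein assembly factor DNAAF1 rose by 1.9 and 0.96 (edgeR adjusted p = 1.32e-06 and 9.12e-05). CCDC40 fell by 0.55 and 0.36 (edgeR adjusted p = 2.67e-07 and 4.5e-05). FOXJ1, the master regulator of these genes, DNAI2 and TEKT1 had at most 12 counts over all libraries, TEKT1 none. The summed level of the list was 13.8 to 14.5 CPM in parental DMSO and 28.8 to 30.6 CPM in parental neratinib. In KO-labelled cells the sum was 25.9 to 27.6 CPM in DMSO and 56.1 to 61.3 CPM in neratinib. In both genotypes the rise of the sum came mostly from DNAH5, so it does not describe the list as a whole.

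Of 16 other membrane serine proteases, 10 were tested, of which 6 rose and 3 fell in parental cells (median 0.49), and 5 rose and 4 fell in KO-labelled cells (median 0.36). The shares over all genes tested were 41.8% and 38.9% in parental cells, and 38.9% and 38.4% in KO-labelled cells. TMPRSS11E, a relative of TMPRSS11F by name, rose by 2.63 (SE 0.127) and 2.14, from 0.968 to 5.98 CPM and from 3.15 to 13.9 CPM (edgeR adjusted p = 7.15e-23 and 2.09e-26). In neratinib TMPRSS11E was higher in KO-labelled cells, by 1.2 (edgeR adjusted p = 3.24e-19); its difference from TMPRSS11F in this respect was not tested. The other relatives TMPRSS11A, TMPRSS11B and TMPRSS11D, chosen after their values were seen, stayed at or below 0.0168 CPM. The iron regulator gene TMPRSS6 rose by 1.5 and 0.66, TMPRSS2 fell by 1 and 1.85 and matriptase, ST14, fell by 0.57 and 0.45 (edgeR adjusted p at most 0.00964).

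FOXN1 is known from skin and thymic epithelium, and markers of both were measured. The background for these lists is 41.8% of all genes tested up and 38.9% down in parental cells, and 38.9% and 38.4% in KO-labelled cells. Of 20 squamous differentiation genes 11 were tested, of which 1 rose and 6 fell in parental cells (median -0.45; 2 rose with library totals alone), and 3 rose and 5 fell in KO-labelled cells (median -0.47). The calmodulin-like gene CALML5 fell by 3.53 and 2.69, and involucrin, IVL, by 2.79 and 0.52, while the desmosomal gene DSC1 rose by 0.77 and 1.57 (edgeR adjusted p at most 0.00299). LORICRIN was at 0 in all libraries, and SPRR2A and KLK5 had at most 12 counts over all of them. The list summed to 75.8 to 78.5 CPM in parental DMSO and 42.9 to 47.5 CPM in parental neratinib, against 80.3 to 82.5 and 58.7 to 63.5 CPM in KO-labelled cells. Of 7 thymic epithelial genes 3 were tested, of which DLL4 rose by 1.11 and 0.97 and PAX9 fell by 0.79 and 0.44 (edgeR adjusted p at most 9.26e-05). PAX1 was at 0, and PRSS16 and AIRE had at most 12 counts over all libraries. The thymic list summed to 33.7 to 35.3 CPM in parental DMSO and 20.1 to 21.1 CPM in parental neratinib. In KO-labelled cells it summed to 28.2 to 29.5 and 22.2 to 23.0 CPM. Most of each sum was PAX9, at 33.9 CPM in parental DMSO and 19.5 CPM in parental neratinib on average. Of 9 blood and stromal markers 4 were tested, of which 3 rose and 1 fell in each genotype, and the T cell gene CD3E had at most 12 counts over all libraries. That list summed to 85.4 to 92.2 and 109 to 114 CPM in parental DMSO and neratinib, and to 119 to 128 and 158 to 161 CPM in KO-labelled cells, mostly from the collagen gene COL1A1 at 72.7 to 114 CPM on average, and its part in the members' levels was not tested.

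The genes next to each member on the chromosome were read to see whether the change extended beyond it. Of the 31 neighbours, the nearest pair on each side plus overlapping ones, 16 had enough counts, and 4 rose and 8 fell in parental cells (median -0.18), against 6 and 7 in KO-labelled cells (median -0.13). Among all genes tested the shares were 41.8% up and 38.9% down in parental cells, and 38.9% and 38.4% in KO-labelled cells. CYP26C1, 3935 bases from CYP26A1, had 1 count in parental DMSO and 0 in parental neratinib, and EXOC6, 13985 bases away, had a log2 fold change of -0.02 in parental cells (edgeR adjusted p = 0.669) and rose by 0.48 in KO-labelled cells (adjusted p = 2.49e-17, edgeR). UNC119, 7807 bases from FOXN1, fell by 0.17 in parental cells, and SLC13A2, 8567 bases away on the other side, had 2 counts in DMSO and 1 in neratinib. SLC4A7, 3340 bases from NEK10, fell by 0.19 in parental cells and rose by 0.22 in KO-labelled cells (edgeR adjusted p = 0.00148 and 0.000202). ASCL5, 1517 bases from CACNA1S, had 2 counts in parental DMSO and 5 in parental neratinib, and KIF21B on its other side fell by 1.14 (edgeR adjusted p = 4.29e-13). TMPRSS11F lies among 6 neighbours with at most 1 count in any group.

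The largest rise among tested neighbours in parental cells was that of EOMES, a T-box factor gene 346570 bases from NEK10, at 1.13 in parental and 1.26 in KO-labelled cells (edgeR adjusted p = 0.000168 and 2.42e-10). Both PRDM4, 13567 bases from ASCL4, and LOC728739, on its other side, rose, by 0.65 and 0.72 in parental cells (edgeR adjusted p = 2.64e-25 and 1.3e-07). LTF, the lactoferrin gene beside LRRC2, fell by 1.25 and 1.73 (edgeR adjusted p = 0.00039 and 1.6e-07). Neighbours' changes were thus in both directions and smaller than the members' ratios, which were chosen to be large.

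**Figure D4:**
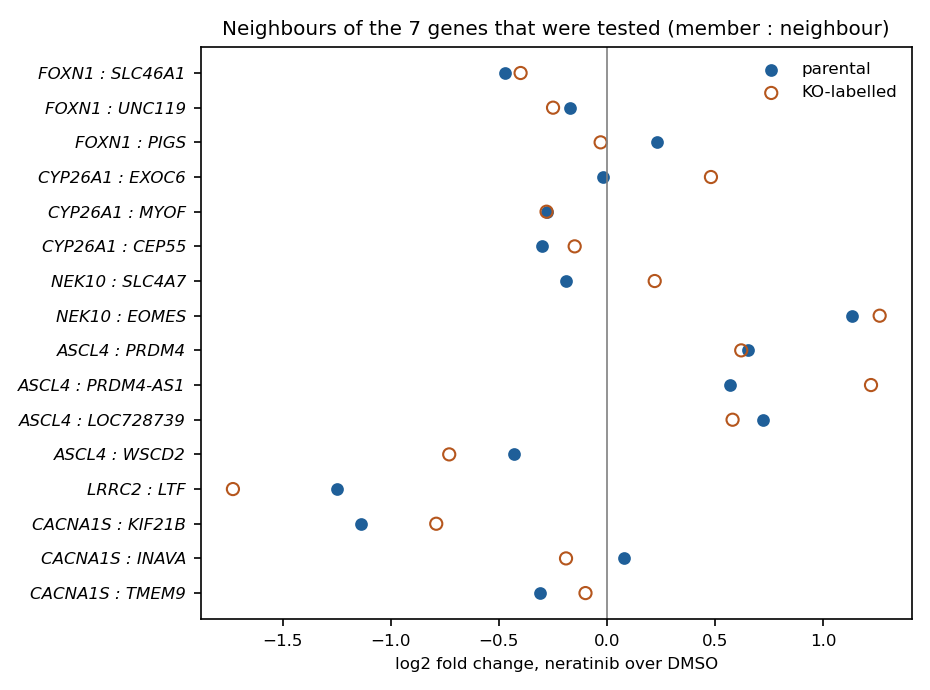
Change with neratinib of the 16 tested neighbours of the 7 genes, as log2 fold change over DMSO (x axis), in parental (filled) and KO-labelled cells (open); each label gives the member and then its neighbour. Values lie on both sides of 0, from -1.73 for LTF to 1.26 for EOMES.

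To place the 7 genes among all others, genes with a mean under 0.1 CPM in DMSO and at least 1 CPM in neratinib were counted, as a description. In parental cells 15 of 11478 genes under 0.1 CPM (0.131%) passed, and 1 gene went the other way, from at least 1 CPM to under 0.1. FOXN1, CYP26A1, ASCL4, NEK10, TMPRSS11F and LRRC2 were 6 of the 15, while CACNA1S reached only 0.374 CPM. The other 9 were the integrin gene ITGA8 at 1.44 CPM in neratinib, the lipid transfer gene MTTP at 1.28, IRAIN at 1.26, SOX30 at 1.25, EDA2R at 1.23, CD200R1 at 1.17, SLC25A30-AS1 at 1.15, PELI2 at 1.12 and the thiamine transporter gene SLC19A3 at 1. FOXN1 and CYP26A1 were thus the highest of the 15. Just outside, ANKRD45, MYLK3 and IRAG1 reached 0.986, 0.986 and 0.934 CPM in neratinib, and HFE, PTPRR and EPHA5 had 0.104, 0.104 and 0.112 CPM in DMSO.

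In KO-labelled cells 2 of 11049 genes under 0.1 CPM (0.0181%) passed, CACNA1S and LRRC2, and none went the other way. The other 5 members were above 0.1 CPM in KO-labelled DMSO, from 0.107 CPM for ASCL4 to 0.681 CPM for CYP26A1, so they could not be counted. LRRC2 was the single gene in both counts. With looser limits, under 0.2 CPM in DMSO and at least 0.5 CPM in neratinib, 160 genes passed in parental and 112 in KO-labelled cells, 47 of them in both, with 40 and 19 going the other way.

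**Figure D5:**
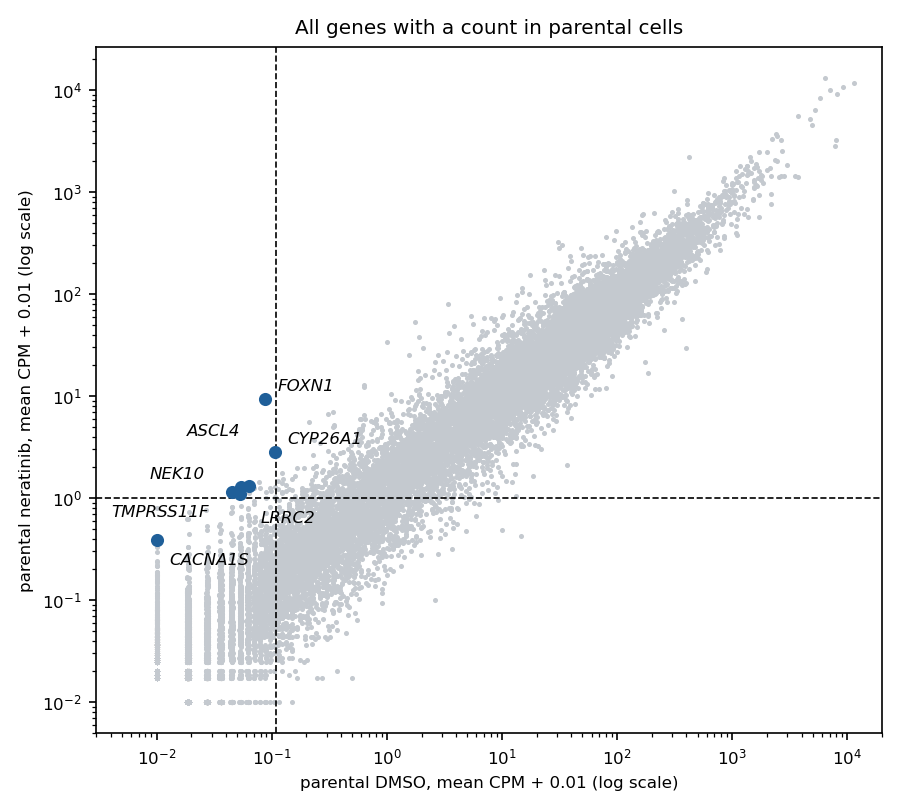
Mean level of every gene with a count in parental cells, in DMSO (x axis) and neratinib (y axis), as CPM plus 0.01 on log scales; dashed lines mark 0.1 CPM in DMSO and 1 CPM in neratinib. In the upper left corner, 6 of the 7 genes (blue) lie with 9 others, FOXN1 highest, and CACNA1S lies below at 0.374 CPM with no count in DMSO.

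The patterns of the 7 genes over the 12 libraries were compared by Pearson's r of log2 CPM, as a description, with libraries that share group and treatment and with no regard to the size of a change. Because all 7 were chosen as low in DMSO and high in neratinib, high values of r among them follow from the choice. Among themselves r ran from 0.838 for ASCL4 with CACNA1S to 0.982 for FOXN1 with LRRC2, and it was 0.973 for CYP26A1 with CACNA1S, the pair higher in KO-labelled neratinib libraries. Among 14219 other genes, the closest to FOXN1 were GRAMD1C and ERBB3, the HER2 partner, both with r = 0.998. ERBB3 was already at 311 CPM in parental DMSO and reached 1020 CPM. The closest to CYP26A1 were AGAP11 and the inhibitor of DNA binding ID4 (both 0.997), and those to CACNA1S were MTF1 (0.995) and UTP23 (0.994). The closest to NEK10 were GNE (0.995) and PLCD1 (0.992), to TMPRSS11F CKAP2 (0.992) and MAPK8 (0.988), and to ASCL4 RNF32 (0.979) and DENND6A (0.978). CEP68 was among the closest to LRRC2 (0.993). These genes were expressed before treatment, ID4 at 1.71 CPM and GNE at 11.4 CPM in parental DMSO, for example.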

How the data were processed

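Messenger RNA was measured in 12 BT474 libraries, made with a kit that does not mark strand and read as single reads of 50 bases, per the labels' protocols. The authors deposited whole-number counts of reads for each gene in a single table, not normalized. FastQC 0.11.7, STAR 2.7.9, edgeR 3.40.2 and GRCh38 are named in the submitters' processing notes; the counting program, annotation and strand setting are not given in the sources used here. Overlapping genes therefore cannot be told apart.

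Lines without a symbol (581, with 0.0877% to 0.124% of counts) were left out. Counts were filtered with filterByExpr, which kept 16208 of 27814 genes. All 7 members passed through their neratinib libraries, CACNA1S only because of the KO-labelled ones. Counts were scaled by TMM and fitted with edgeR 4.0.16 (R 4.3.3) as 4 group means over all 12 libraries, with 8 residual degrees of freedom. Tests were by quasi-likelihood with Benjamini-Hochberg adjustment over all genes, called below 0.05. Ratios of summed counts have exact conditional 95% intervals, which cover counting error only. Values against the floor have no interval and leave out the error of the counts above it. Counts of 15714 genes were simulated from the parental neratinib means, with known changes between the genotypes in neratinib in 67, 67 and 66 genes. Of these, 83.1% of 1.5-fold, 93.9% of 2-fold and 100% of 4-fold changes were recovered, with 12 false calls. In the measured contrast 71.6% of genes were called, so these rates do not carry over to it, nor to genes as low as the members. DESeq2 1.42.0, other scaling, no filter, fewer libraries and a replicate block were alternatives.

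Places and overlaps are from GENCODE 29, and promoter windows from the RefSeq table of GRCh38.p14. The members and gene lists were chosen with earlier results of these data known. By rule the text names, per list, up to 2 called genes with the largest change in parental cells each way, the neighbours, the 2 genes most like each member in pattern (among tested genes with at least 1 CPM in a group), and the genes in or nearest the limits of the count of silent genes. A few genes that fall under this rule or the lists are not reported here.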

Additional observations from a re-analysis of the deposited data

Results flagged for a closer look

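The interaction term of the same edgeR fit (Benjamini-Hochberg adjusted over all genes) was read for 90 tested genes that are not among the 7. These were named by the rule, as checks of label and drug, or after their values were seen. Other genes of the lists were not screened. Of the 90, 8 were called with a neratinib response that differed between the genotypes by at least 1 on the log2 scale. The share of all genes tested that did so was not counted, so 8 of 90 is not set against a background. The members' own interaction was not tested, because it contains the contrast they were chosen for. Most of the 90 were also named for a large or low value in parental cells, so these differences are not independent of the choice. CACNA1C, the calcium channel relative of CACNA1S, rose by 3.08 in parental and 1.14 in KO-labelled cells, a difference of -1.93 (SE 0.216, adjusted p = 3.99e-10). The ERK phosphatase gene DUSP6 fell by 4.12 in parental and 1.17 in KO-labelled cells, a difference of 2.95 (SE 0.098, adjusted p = 4.41e-27). Involucrin, IVL, fell by 2.79 and 0.52, a difference of 2.28 (SE 0.238, adjusted p = 7.79e-11). DHRS3 had log2 fold changes of 1.53 and 0.38, a difference of -1.15 (SE 0.271, adjusted p = 0.000485).

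The other 4 were genes in or next to the count of silent genes turned on in parental cells, and so were picked on that response. The differences were -2.64 for IRAIN (SE 0.974), -2.54 for SOX30 (SE 0.457), -1.84 for HFE (SE 0.451) and -1.78 for EDA2R (SE 0.461).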

How the results depend on the processing

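In the comparison of the genotypes in neratinib, the 4 members called and the 3 not called kept that status under all 12 alternatives, and 1 direction reversed: TMPRSS11F had 0.04 without KO-labelled neratinib replicate 3, within a range of -0.51 to 0.04 when each library was left out. That library was the lowest of its group. The number of genes called, 11605, was 10743 with DESeq2. The parental value of CACNA1S against the floor ranged from 9.38 to 17.0 when each library was left out, since the floor is spread over fewer libraries. With no filter on low counts, 2 ASCL genes fell and 2 thymic genes rose in parental cells, 2 FOXN genes rose in each genotype, and 2 squamous genes rose in parental cells, as more genes are then tested. With library totals alone, 2 squamous genes rose in parental cells, 1 muscle gene rose in KO-labelled cells and 9 calcium channel genes rose in each genotype, and the cause was not tested. Of the retinoid genes, 9 in place of 10 rose in KO-labelled cells without the filter and with the replicate block. Other list counts moved by at most 2 genes. With the looser limits, the count of silent genes turned on was 160 and 112. Single-digit DMSO counts limit every ratio.

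The labels do not say whether replicate numbers pair the samples. Deviations of same-numbered libraries had correlations of -0.144 to 0.089, and those of differently numbered libraries -0.169 to 0.224. Such correlations cannot show whether samples were paired by culture or day. With the replicate number as a block the log2 fold changes were -0.3 for FOXN1, -0.2 for TMPRSS11F, 2.26 for CYP26A1, 0.64 for NEK10, -0.29 for ASCL4, 0.31 for LRRC2 and 2.55 for CACNA1S, with 11512 genes called and no member's call changed.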
